A study of Mus musculus with 2 samples.

Results

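Alveolar fibroblasts of the mouse lung were described in 2 single-cell RNA sequencing libraries, with 1140 such cells among 15695 filtered cells. Of these, 678 of 7988 cells came from the library of lungs exposed to control media (CM) and 462 of 7707 from the library of lungs exposed to tumor conditioned media (TCM). A cell was a droplet with at least 500 unique molecular identifiers (UMIs, each standing for 1 captured RNA molecule), 200 or more genes, and a mitochondrial part of no more than 10%. A fibroblast had at least 3 summed UMIs of Col1a2, Col3a1, Mfap4 and Pdgfra and none of Ptprc, Cdh5 or Epcam, which mark leukocytes, endothelium and epithelium. It was called alveolar when it held at least 2 summed UMIs of Npnt, Slc7a10 and Spon1 and more of these than of Pi16, Col14a1 and Clec3b, genes of the adventitial fibroblasts that sheathe vessels and airways. Cells were therefore chosen by measured values, and the 13 genes of this rule are described below without being counted as results.

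Alveolar fibroblasts lie in the walls of the air sacs, next to the epithelium and the capillaries. They build the collagen and elastic fibres and part of the basement membrane of the septum, supply growth factors to alveolar type II cells, and include lipid-laden cells (lipofibroblasts) that store vitamin A as retinyl esters. Stromal cells of the lung are among the cells that tumor-derived factors can alter before metastatic cells arrive, through deposition of matrix such as fibronectin and periostin and through chemokines that draw myeloid cells.

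Dissociated whole lung of female BALB/c mice, 9 to 10 weeks of age, was the source of both libraries, and the labels name no genetic change. The animals had received intravenous injections over 3 weeks, of control media in the CM group and of media conditioned by 4T1 mammary tumors in the TCM group. The study used this design to ask which resident lung cells respond to factors secreted by a metastatic breast tumor. Each group had 1 library, the number of mice in it was not stated, and no test between the groups was possible. All intervals are 95% intervals for counting error, and the spread between mice is not known.

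Over all barcodes 31944151 UMIs were counted in CM and 36648719 in TCM. Among filtered cells 93 barcodes occurred in both libraries, and among alveolar fibroblasts 0 did. Alveolar fibroblasts were sampled less deeply in CM, with a median of 3448 UMIs and 1652 genes per cell, than in TCM, with 4539 UMIs and 1949 genes. Cells with fewer than 1000 UMIs were 21.5% of those in CM and 8.23% of those in TCM. Levels are therefore given as UMIs of a gene per 100000 UMIs summed over the alveolar fibroblasts of a library. RNA outside cells that droplets take up (free RNA) was estimated at 3.79% of these UMIs in CM and 6.08% in TCM.

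The genes of the rule were present at high levels. Npnt, which encodes the basement membrane protein nephronectin, stood at 231 UMIs per 100000 in CM and 211 in TCM, the amino acid transporter gene Slc7a10 at 39.3 and 35.0, and the matrix protein gene Spon1 at 83.0 and 97.0. Mfap4, a microfibril gene, stood at 726 and 857, Pdgfra, the receptor for platelet-derived growth factor A, at 75.9 and 78.8, Col1a2 at 46.5 and 54.3 and Col3a1 at 51.6 and 62.9. The adventitial gene Pi16 had 3 UMIs in CM and 2 in TCM and Col14a1 stood at 1.31 and 1.21, whereas Clec3b, which encodes tetranectin, reached 123 and 132. All 3 alveolar rule genes were seen together in 325 CM cells (47.9%) and 272 TCM cells (58.9%). At the threshold, the 88 CM and 28 TCM cells with exactly 2 summed alveolar UMIs had Inmt levels of 162 and 107, and the 61 CM and 25 TCM fibroblasts just outside, with 1 such UMI, had 167 and 64.8.

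Genes of alveolar fibroblasts that the rule did not use were high as well and differed little between the libraries. Inmt, which encodes a methyltransferase for indole amines, stood at 586 UMIs per 100000 in CM (interval 577 to 596) and 580 (570 to 591) in TCM, giving a log2 ratio of TCM over CM of -0.01 (-0.05 to 0.02). A UMI of Inmt was found in 92.3% of CM and 89.6% of TCM cells, and after thinning each cell to 1000 UMIs in 90.7% and 88.2%. In lymphocyte droplets (median 2196 UMIs in CM and 2263 in TCM), which are not known to express Inmt and so measure the background of free RNA, the thinned shares were 2.68% and 3.96%. Tcf21, a transcription factor of lung mesenchyme, stood at 121 and 109, and Itga8, the integrin chain that binds nephronectin, at 82.1 and 93.6. Of the 15 listed genes 13 reached the minimum mean level of 5 UMIs per 100000, and their log2 ratios ran from -0.24 for the glycogenin gene Gyg (170 and 144) to 0.23 for the lymphangiogenic factor gene Vegfd (36.3 and 42.5), with a median of -0.11. None of the 13 differed by 1.5-fold, where 2.26% of all genes compared below did. Of the 13, 5 were above 0, against 54.3% of all genes. Among cells with at least 3000 UMIs (362 in CM and 324 in TCM), the median Inmt count per cell was 32 and 33, with quartiles of 20.25 and 49 in CM and of 21.75 and 45 in TCM.

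**Figure D1:**
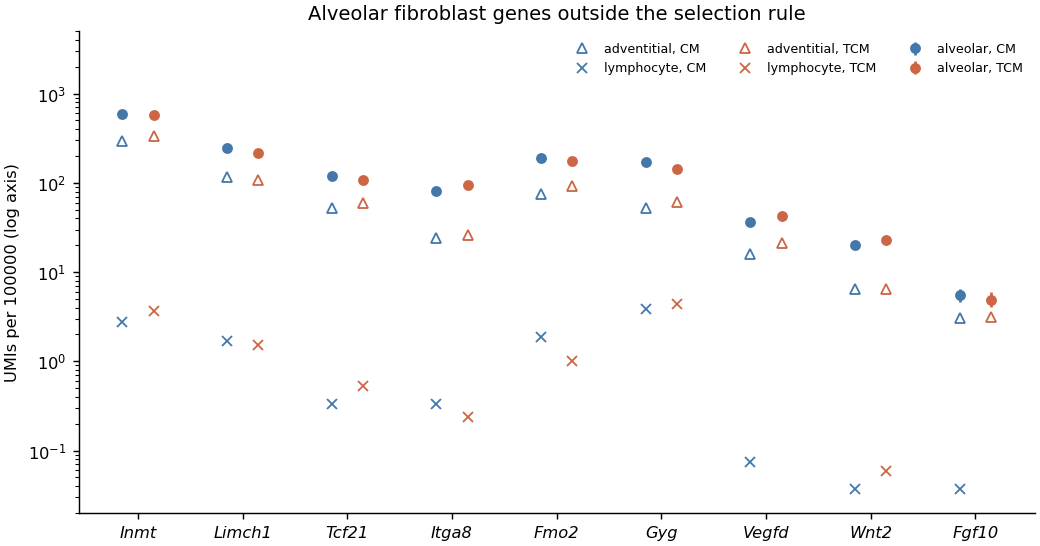
Levels of 9 alveolar fibroblast genes outside the selection rule (UMIs per 100000, log axis) in alveolar fibroblasts, adventitial fibroblasts and lymphocyte droplets, CM in blue and TCM in orange. Bars on the filled points are 95% Poisson intervals, a gene with no UMI in lymphocytes has no cross, and the CM and TCM points of each gene lie close together, with Inmt at 586 and 580, and lymphocytes lie far below.

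The comparison class was the adventitial fibroblasts, taken by the mirrored rule, with 239 CM and 181 TCM cells. Inmt reached 295 and 336 UMIs per 100000 in these, so that alveolar exceeded adventitial levels by a log2 difference of 0.99 in CM (0.93 to 1.05) and 0.79 in TCM (0.73 to 0.85). The separation was larger for Scube2, a secreted protein gene, at 2.42 in CM (2.12 to 2.74) and 2.03 in TCM (1.75 to 2.33), and for Itga8 at 1.76 (1.57 to 1.95) and 1.86 (1.66 to 2.06). Inmt was therefore seen in both classes, at different levels. Of the adventitial class, 104 of 239 CM cells and 102 of 181 TCM cells also held at least 2 summed UMIs of Npnt, Slc7a10 and Spon1. The part of these cells in the adventitial Inmt level, and in the later comparisons with this class, was not tested.

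Not every cell that met the rule looked like an alveolar fibroblast. With at least 10 summed UMIs of Acta2, Myh11, Cnn1, Actg2 and Actc1, genes of the contractile apparatus, 45 CM cells (6.64%) and 35 TCM cells (7.58%) held 99.3% and 99.4% of all UMIs of these genes in the alveolar fibroblasts. In these contractile cells Acta2, smooth muscle actin, stood at 2993 UMIs per 100000 in CM and 2524 in TCM, against 2.72 and 2.27 in the other cells. Acta2 was itself used to choose them, so this gap is a description only. Of genes not used to choose them, Inmt stood at 52.6 and 3.00 against 654 and 666, and Tcf21 at 4.91 and 4.12 against 135 and 124. Pdgfra was at 3.86 and 0.750 against 85.0 and 90.3. Lgr6, a receptor gene known from airway smooth muscle, had 97.2% and 98.1% of its UMIs in them.

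The contractile cells had entered mostly through Npnt, of which 44 of the 45 CM cells and all 35 TCM cells held a UMI, and 27 in each library had neither Slc7a10 nor Spon1. They were also deeper, with medians of 6044 and 6399 UMIs against 3181 and 4296 in the other cells. Since they held little Inmt and Tcf21, markers that the rule did not use, the ratio without them is given beside genes of which they held a large part or whose call it ended. This split was chosen after the data had been seen, and these cells are not given a cell type name.

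**Figure D2:**
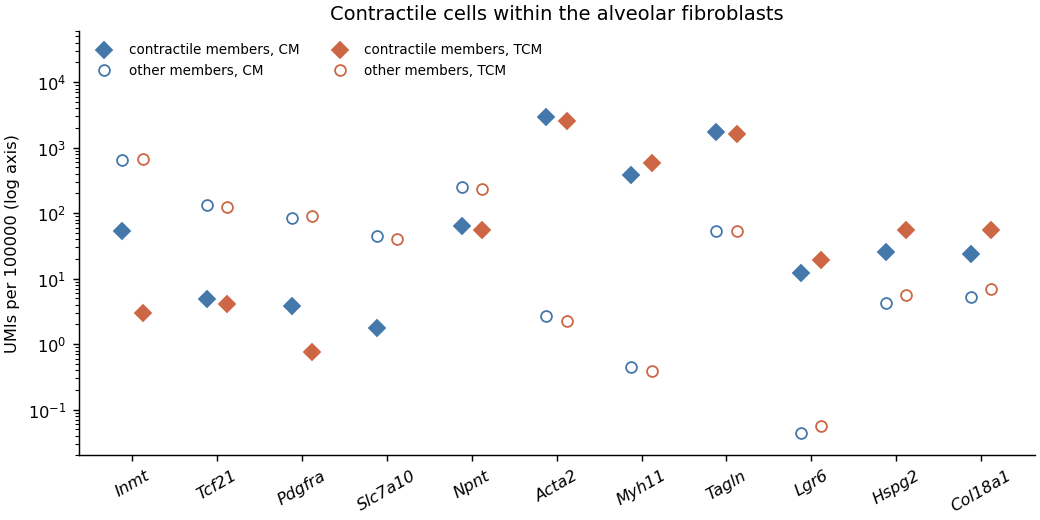
Levels (UMIs per 100000, log axis) of 11 genes in the contractile cells (filled diamonds, 45 in CM and 35 in TCM) and in the other alveolar fibroblasts (open circles), CM in blue and TCM in orange. Acta2 and Myh11, which were used to choose the contractile cells, and Lgr6, which was not, are almost absent from the other cells. Inmt, Tcf21 and Pdgfra are far lower in the contractile cells, and a gene with 0 UMIs (Slc7a10 in contractile TCM cells) has no point.

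Alveolar fibroblasts made up 8.49% of the filtered CM cells (Clopper-Pearson interval 7.89 to 9.12%) and 5.99% of the TCM cells (5.47 to 6.55%), a ratio of 0.706 (0.630 to 0.792). Adventitial fibroblasts made up 2.99% and 2.35%, a ratio of 0.785 (0.649 to 0.95). Among both kinds together, alveolar cells were 73.9% in CM and 71.9% in TCM. The rule itself bears on these shares: of the 1762 CM and 1309 TCM cells with enough fibroblast UMIs, 33.9% and 40.1% were dropped for a UMI of Ptprc, Cdh5 or Epcam, and 326 and 296 of those dropped met the alveolar condition. With 1 such UMI allowed the ratio of the shares was 0.712, and over the other alternatives for which it was computed it lay between 0.697 and 0.763.

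For the comparison of TCM with CM, 3099 genes outside the rule had a mean level of at least 5 UMIs per 100000. Their median log2 ratio was 0.02, and the 5th and 95th percentiles were -0.31 and 0.37, so most genes were alike in both libraries. At 1.5-fold or more, 53 genes (1.71%) were higher in TCM and 17 (0.549%) were lower, 2.26% in either direction. Without the contractile cells 44 were higher and 17 lower, but without the 10 highest cells of each gene 42 were higher and 43 lower. Of the 70 genes past the fold, 16 rested on few cells, with at least 50% of their UMIs in 10 cells of the library where they were higher or with fewer than 10 cells there.

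**Figure D3:**
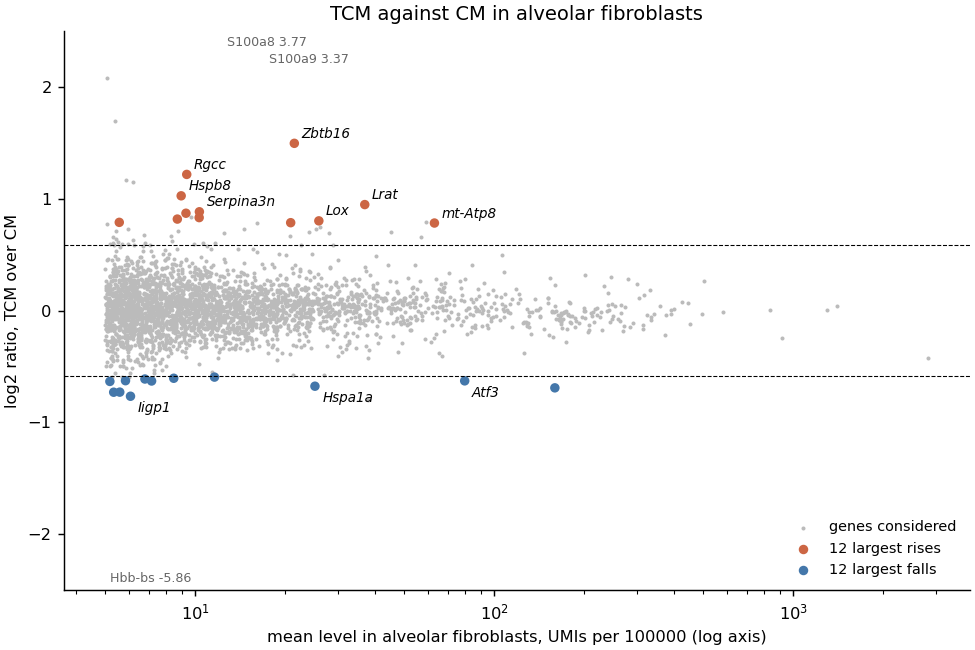
Log2 ratio of TCM over CM in alveolar fibroblasts against the mean level (UMIs per 100000, log axis) of 3099 genes. Dashed lines mark 1.5-fold, coloured points the 12 largest rises and 12 largest falls that did not rest on few cells, and grey labels 3 genes beyond the axis (S100a8, S100a9 and Hbb-bs), and Zbtb16 lies highest of the coloured points, at 1.5, and most genes lie between the lines.

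Among genes that did not rest on few cells the highest ratio was that of Zbtb16 (chr9:48654297-48836222, minus strand, GRCm38), which encodes a zinc finger repressor that glucocorticoids induce in many tissues. Its level was 11.2 UMIs per 100000 (9.95 to 12.6) in CM and 31.6 (29.3 to 34.2) in TCM. A UMI was seen in 29.4% of CM and 62.8% of TCM cells, and at 1000 UMIs per cell in 11.7% and 26.8%, against 1.01% and 1.21% of lymphocytes. The difference, a log2 ratio of 1.5 (1.29 to 1.70), was thus spread over many cells, and no more than 12.4% of the UMIs lay in the 10 highest cells of either library. It was 1.46 without the contractile cells and lay between 1.41 and 1.57 under all 11 alternatives. Among cells with at least 3000 UMIs, 40.6% in CM and 72.5% in TCM held a Zbtb16 UMI. The ratio was 1.84 in adventitial fibroblasts and 1.17 in all other cells.

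Zbtb16 belongs to a list of 24 genes that glucocorticoids induce, with their receptor, of which 17 were considered. Of these 3 were at least 1.5-fold higher and 0 lower, against 1.71% and 0.549% of all genes. The median log2 ratio was 0.29, and 15 of the 17 were above 0, as were 54.3% of all genes. Glul, glutamine synthetase, stood at 34.2 UMIs per 100000 in CM and 55.7 in TCM (log2 ratio 0.70, 0.57 to 0.83), and Cdkn1a, the cell cycle inhibitor p21, stood at 16 and 25.5 (0.67, 0.48 to 0.86), with 0.53 when 1 excluded UMI was allowed. Sgk1, a kinase that glucocorticoids induce, stood at 8.76 and 13.1 (0.58), just short of the fold, and Tsc22d3, which encodes the anti-inflammatory protein GILZ, at 62.4 and 78.6 (0.33). Fkbp5, a chaperone of the receptor, was below the minimum level, with 33 and 69 UMIs. The receptor gene Nr3c1 itself stood at 21.0 and 16.6 (-0.34, -0.54 to -0.15). Not all targets were higher, since Cebpd, an abundant member, stood at 333 and 297 (-0.17). In adventitial fibroblasts the same 17 genes had a median of 0.03.

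Of 20 listed genes for vitamin A storage and signalling 6 were considered, and the transcript of 1, Lrat, was past the fold upward, as were 1.71% of all genes. Lrat (chr3:82892579-82903973, minus strand, GRCm38), the enzyme that esterifies retinol for storage, stood at 25.2 UMIs per 100000 (23.2 to 27.2) in CM and 48.6 (45.6 to 51.7) in TCM, a log2 ratio of 0.95 (0.80 to 1.09). Thinned to 1000 UMIs, 21.3% of CM and 37.2% of TCM cells held a UMI, against 0.328% and 0.202% of lymphocytes. The contractile cells held 12 Lrat UMIs in CM and 0 in TCM, and the ratio without them was 1. Of the other members, Dhrs3, a retinal reductase gene, stood at 4.87 and 6.38 (0.39, 0.02 to 0.75). The retinal dehydrogenase gene Aldh1a1 stood at 49.7 and 54.4 (0.13) and Rarres2, which encodes chemerin, at 82.6 and 86.8 (0.07). The retinoic acid receptor gene Rarg stood at 5.19 and 4.88 (-0.09). Lrat was thus the single gene of 6 past the fold in a list with a median of 0.10.

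Lipid genes, which the study followed in alveolar type II cells, showed no common direction in alveolar fibroblasts. Of 42 listed genes for lipid storage, uptake and release 12 were considered, with a median log2 ratio of -0.07. Of these 5 were above 0, against 54.3% of all genes, and 2 were past the fold, both higher, against 1.71% of all genes. Angptl4, an inhibitor of lipoprotein lipase, stood at 18.3 and 29.9 UMIs per 100000 (0.71, 0.53 to 0.88), and Lipe, hormone-sensitive lipase, at 4.52 and 6.81 (0.59, 0.23 to 0.96). Lipe stayed past the fold under 6 of 11 alternatives and Angptl4 under all 11. The lipid droplet protein gene Plin2 stood at 30.9 and 29.0 (-0.09) and Apoe, apolipoprotein E, at 250 and 256 (0.04). Fasn, fatty acid synthase, had 56 and 57 UMIs, Scd1, which desaturates palmitate and stearate, 63 and 32, and Acly, which makes cytosolic acetyl-CoA, 80 and 73, all below the minimum level. All 4 considered genes of cholesterol synthesis and uptake were below 0, whereas 54.3% of all genes were above it, and their median was -0.23. Fdps, farnesyl diphosphate synthase, stood at 6.02 and 4.49 (-0.42, -0.81 to -0.04), and 0 of the 4 reached the fold, against 2.26% of all genes in either direction.

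Several basement membrane genes stood higher in TCM. Of 23 listed genes 14 were considered, with a median log2 ratio of 0.23, 12 of them above 0 (54.3% of all genes were), 3 past the fold upward (1.71% of all genes) and 0 downward. Col4a1 and Col4a2, which encode the chains of the main type IV collagen, stood at 19.0 and 31.5 and at 10.9 and 18.1 UMIs per 100000 in CM and TCM. Both had a log2 ratio of 0.73, with intervals of 0.56 to 0.90 and 0.50 to 0.96. Col4a5, a further type IV chain outside the list, singled out after its values were seen, stood at 4.48 and 7.44 (0.73, 0.37 to 1.1). The ratios of the 3 collagen IV genes without the contractile cells were 0.63, 0.76 and 0.76. Among laminin genes, Lamb1 stood at 14.3 and 19.0 (0.42, 0.21 to 0.63), Lamc1 at 16.3 and 17.9 (0.13) and Lama4 at 12.7 and 13.2 (0.06), and Nid1, nidogen, which links laminin to collagen IV, stood at 11 and 11.7 (0.09).

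Col4a1 (chr8:11198423-11312826, minus strand) and Col4a2 (chr8:11312805-11449287, plus strand) are known to share a promoter from which they are transcribed in opposite directions. By RefSeq on GRCm38.p6 their first bases overlap by 22 bases, and this stretch is shown as a description only. Their equal ratio held over all alveolar fibroblasts together. In the contractile cells the log2 ratio was 1.33 (0.83 to 1.84) for Col4a1 and 0.53 (-0.07 to 1.13) for Col4a2. A part of the shared promoter in these values was not tested. The line gives the plus strand at chr8:11312801-11312830, with the bases between both start sites in capitals:
Col4a1-Col4a2 starts: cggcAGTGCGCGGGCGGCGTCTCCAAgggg

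Hspg2 and Col18a1 differed in a second respect, since the contractile cells carried much of their signal. Hspg2, which encodes perlecan, stood at 6.58 UMIs per 100000 in CM and 12 in TCM (log2 ratio 0.87, 0.58 to 1.16), and Col18a1, the precursor of endostatin, at 7.41 and 13.2 (0.83, 0.56 to 1.11). The contractile cells held 43.4% and 59.4% of the Hspg2 UMIs and 36.4% and 54.2% of the Col18a1 UMIs. Within them Hspg2 stood at 25.3 and 55.5 (1.13, 0.72 to 1.56). In the other alveolar fibroblasts it stood at 4.2 and 5.60 (0.42, -0.0038 to 0.84), and Col18a1 at 5.32 and 6.93 (0.38, 0.01 to 0.76). Neither reached 1.5-fold without the contractile cells.

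**Figure D4:**
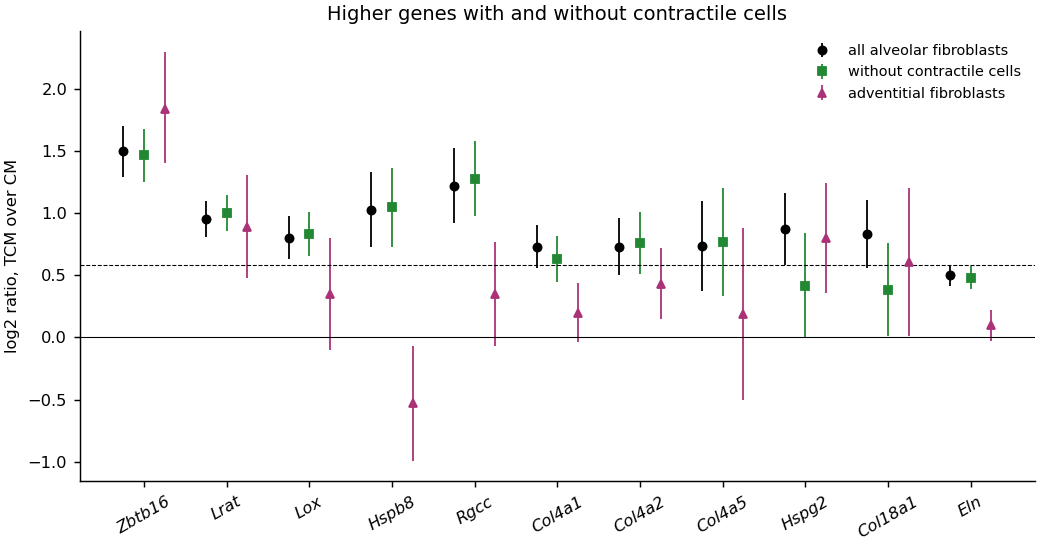
Log2 ratio of TCM over CM for 11 genes higher in TCM, in all alveolar fibroblasts (black circles), without the contractile cells (green squares) and in adventitial fibroblasts (purple triangles), with 95% conditional binomial intervals and a dashed line at 1.5-fold. Hspg2 and Col18a1 drop from 0.87 and 0.83 to 0.42 and 0.38 when the contractile cells are left out, whereas Zbtb16, Lrat, Lox and the collagen IV genes stay above the line.

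Fibre genes showed smaller differences. Of 14 elastic fibre genes 1 was past the fold, upward, as were 1.71% of all genes, and the median was 0.10. It was Lox, the lysyl oxidase that crosslinks collagen and elastin, at 18.9 and 32.9 UMIs per 100000 (0.80, 0.63 to 0.97). Eln, elastin, stood at 87.6 (84.0 to 91.4) and 124 (119 to 129), a log2 ratio of 0.50 (0.42 to 0.58) that stayed below the fold under all 11 alternatives. Of 15 genes of fibrillar collagens and their partners 12 were above 0 (54.3% of all genes were), with a median of 0.20. Col6a3 stood at 18 and 27.0 (0.59, 0.40 to 0.77), with its partner chains Col6a1 at 31.9 and 41.8 (0.39) and Col6a2 at 31.7 and 38.7 (0.29). Col6a3 was the single member past the fold, under 4 of 11 alternatives, and without the contractile cells, at 0.52, it was not. Col1a1, the main chain of type I collagen, stood at 36.5 and 42.1 (0.20, 0.07 to 0.34).

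Most considered matrix genes tied to the pre-metastatic niche stood above 0. Of 13 listed genes 7 were considered, with a median log2 ratio of 0.24. Of these 6 were above 0, against 54.3% of all genes, and the lowest was Ccn1 at -0.21. Postn alone was past the fold, where 1.71% of all genes were upward. Fn1, fibronectin, stood at 72.4 and 95.9 UMIs per 100000 (log2 ratio 0.40, 0.31 to 0.50). Postn, periostin, had 91 and 168 UMIs (1.17, 0.79 to 1.55), of which 50.5% and 66.7% lay in 10 cells, and the ratio without the 10 highest cells of each library was 0.60. The contractile cells held 74.7% and 60.1% of the Postn UMIs, and without them, with 23 and 67 UMIs left, the ratio was 1.85 (1.15 to 2.61). Thbs1, thrombospondin 1, stood at 56.1 and 61.8 (0.14). Of 18 matrix-remodelling enzymes and inhibitors 1 was past the fold, upward, as were 1.71% of all genes, and the median of the list was 0.04. It was Adamts15, a protease for proteoglycans, at 6.30 and 11.1 (0.82, 0.52 to 1.12).

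Several other genes among the 12 largest rises were seen in many cells. Hspb8, a small heat-shock protein gene (chr5:116408491-116422864, minus strand, GRCm38), stood at 5.90 and 12 UMIs per 100000 (1.03, 0.73 to 1.33), and Rgcc, a regulator of the cell cycle that responds to complement, at 5.63 and 13.1 (1.22, 0.92 to 1.52). With 1 excluded UMI allowed Rgcc was at 0.58, short of the fold. Serpina3n, an acute-phase protease inhibitor, stood at 7.25 and 13.4 (0.88, 0.61 to 1.16). Man2a1, a Golgi mannosidase, stood at 4.08 and 7.05 (0.79) and Mbd1, which binds methylated DNA, at 15.3 and 26.4 (0.79). The mitochondrial gene mt-Atp8 stood at 46.3 and 79.7 (0.78) and was also higher in all other cells, by 0.64. With Zbtb16, Lrat, Lox, Adamts15, Hspg2 and Col18a1 these make up the 12.

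Heat-shock genes went both ways. Of 18 chaperone genes 4 were above 0, against 54.3% of all genes, with a median log2 ratio of -0.14. The fold was passed by 1 downward (Hspa1a) and 1 upward (Hspb8), against 0.549% and 1.71% of all genes. Hspa1a, the inducible HSP70, stood at 30.9 UMIs per 100000 (28.8 to 33.2) in CM and 19.3 (17.5 to 21.3) in TCM, a log2 ratio of -0.68 (-0.85 to -0.50), and at -0.54 without the contractile cells. Its neighbour Hspa1b stood at 4.75 and 3.82 (-0.32, -0.75 to 0.10), and Dnajb1, an HSP40 that works with HSP70, at 32.2 and 21.6 (-0.57, -0.74 to -0.41). The ratio of Hspa1a was -0.84 in adventitial fibroblasts and -0.63 in all other cells. The constitutive Hspa8 stood at 186 and 173 (-0.11).

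Hspa1a and Hspa1b are near-identical copies, so that reads of one can be lost or assigned to the other, and their separate values are uncertain. Their upstream sequences were read from RefSeq on GRCm38.p6 to show how alike they are. The 88 bases from 144 to 57 before the start site, minus strand at chr17:34972213-34972300 for Hspa1a and at chr17:34959295-34959382 for Hspa1b, are the same in both, with the inverted repeat GAANNTTC, the core of heat-shock elements, in capitals:
Hspa1a upstream: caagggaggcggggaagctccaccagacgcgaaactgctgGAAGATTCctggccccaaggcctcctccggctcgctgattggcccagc
Hspa1b upstream: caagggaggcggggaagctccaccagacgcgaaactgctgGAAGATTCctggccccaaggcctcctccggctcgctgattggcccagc
The pattern GAANNTTC is its own reverse complement and occurs in 7.86% of 32851 promoter windows, so the match is a description only.

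The other large falls were of low or moderate level. Atf3, a stress-induced transcription factor, stood at 96.6 and 62.5 UMIs per 100000 (-0.63, -0.73 to -0.53). It was -0.50 without the contractile cells. After thinning, 24.7% of CM and 23.8% of TCM cells held an Atf3 UMI, against 2.54% and 3.5% of lymphocytes, and the unthinned shares were 30.7% and 36.4%. Iigp1, an interferon-induced GTPase, stood at 7.65 and 4.49 (-0.77, -1.14 to -0.40) and Runx1t1, a transcriptional corepressor, at 6.97 and 4.2 (-0.73, -1.12 to -0.35). Mrps6, a mitochondrial ribosome gene, stood at 6.66 and 4.01 (-0.73), the polymerase gene Rev3l at 6.30 and 4.06 (-0.63), the endosomal adaptor gene Appl1 at 8.68 and 5.60 (-0.63) and the RhoGAP gene Arhgap5 at 7.09 and 4.59 (-0.63). Gps2, a subunit of a corepressor complex, stood at 8.20 and 5.36 (-0.61), the actin regulator gene Mtss1 at 10.2 and 6.72 (-0.61) and Zranb2, a splicing regulator, at 13.9 and 9.23 (-0.60). AY036118 stood at 197 and 122 (-0.69). Free RNA accounted for an estimated 16.2% of its level in CM and 68.6% in TCM, and with free RNA subtracted the ratio was -2.07. Of the 12 falls, Iigp1, Mrps6 and Runx1t1 stayed past the fold under all 11 alternatives and the others under 7 to 10.

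Medians of the immune signalling lists were close to the 0.02 of all genes. Over all genes 54.3% were above 0, 1.71% were past the fold upward and 0.549% downward. Of 24 immediate early genes 9 were above 0 and the median was -0.04, with Fos at 401 and 344 UMIs per 100000 (-0.22) and Jun, its AP-1 partner, at 287 and 252 (-0.19). Klf4, a zinc finger factor, was the single member past the fold upward, at 9.27 and 14.1 (0.60, 0.35 to 0.86), and it stayed past it under 8 of 11 alternatives. Atf3, given above, was the single member past it downward. Of 15 interferon response genes 5 were above 0, 1 (Iigp1) was past the fold, downward, and the median was -0.03. Of 22 NF-kB and acute-phase genes 2 were past the fold, the complement gene C4b at 7.85 and 11.9 (0.60, 0.32 to 0.88; past the fold under 7 of 11 alternatives, and at 0.36 without its 10 highest cells) and Hp, haptoglobin, which rested on few cells, and the median was 0.06. Of 8 chemokine and cytokine genes 4 were above 0, and the median was -0.04. The single member past the fold was Cxcl2 (2.08), which rested on few cells. Among the others Ccl2, which draws monocytes, stood at 24.4 and 32.0 (0.39), with 73.4% and 71.8% of its UMIs in 10 cells. Cxcl14 stood at 76.0 and 57.4 (-0.41, -0.51 to -0.30) and the neutrophil attractant Cxcl1 at 21.6 and 15.9 (-0.44).

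Of 14 growth factor genes for the alveolar epithelium 5 were above 0, against 54.3% of all genes, and the median log2 ratio was -0.15. Fgf10, a factor for epithelial progenitors, stood at 5.47 and 4.93 UMIs per 100000 (-0.15, -0.53 to 0.23), Wnt2 at 20.0 and 22.9 (0.20) and Bmp5 at 12 and 8.60 (-0.48, -0.75 to -0.20). Angpt1, the ligand of the endothelial receptor TIE2, stood at 31.4 and 26.3 (-0.25). Igf1, insulin-like growth factor 1, was past the fold at 4.12 and 6.52 (0.66, 0.28 to 1.05), but at 0.48 without the contractile cells, which held 0 of its UMIs in CM and 18 in TCM, all in 1 cell. Of 10 genes of the TGF-beta pathway 0 reached the fold, against 2.26% of all genes in either direction. The receptor gene Tgfbr3 stood at 15.8 and 20.8 (0.39) and the inhibitor gene Smad7 at 11.6 and 9.23 (-0.33). Among the 6 clock genes Nr1d1, a repressor of the loop, stood at 6.58 and 10.1 (0.63, 0.32 to 0.93), and 0.58 without the contractile cells.

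Glycolysis, metallothionein and S100 genes had list medians from -0.02 to 0.22, against 0.02 for all genes. Of 11 glycolysis and hypoxia genes 1 was past the fold, upward, as were 1.71% of all genes, and the median was -0.02. It was Pfkfb3, which makes an activator of glycolysis, at 4.24 and 6.62 UMIs per 100000 (0.64, 0.27 to 1.02). Pfkfb3 stayed past the fold under 9 of 11 alternatives. Mt1 and Mt2, the metallothioneins that bind zinc, stood at 215 and 250 (0.22) and at 13.2 and 19.0 (0.53, 0.31 to 0.74). All 8 considered genes of the S100 family of calcium-binding proteins were above 0 (54.3% of all genes were), with a median of 0.19. S100a6 stood at 95.2 and 121 (0.34, 0.26 to 0.43), but at 0.12 without the 10 highest cells of each library, and S100a11 at 74.3 and 81.6 (0.14). The only members past the fold were S100a8 and S100a9, described with the neutrophil genes.

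**Figure D5:**
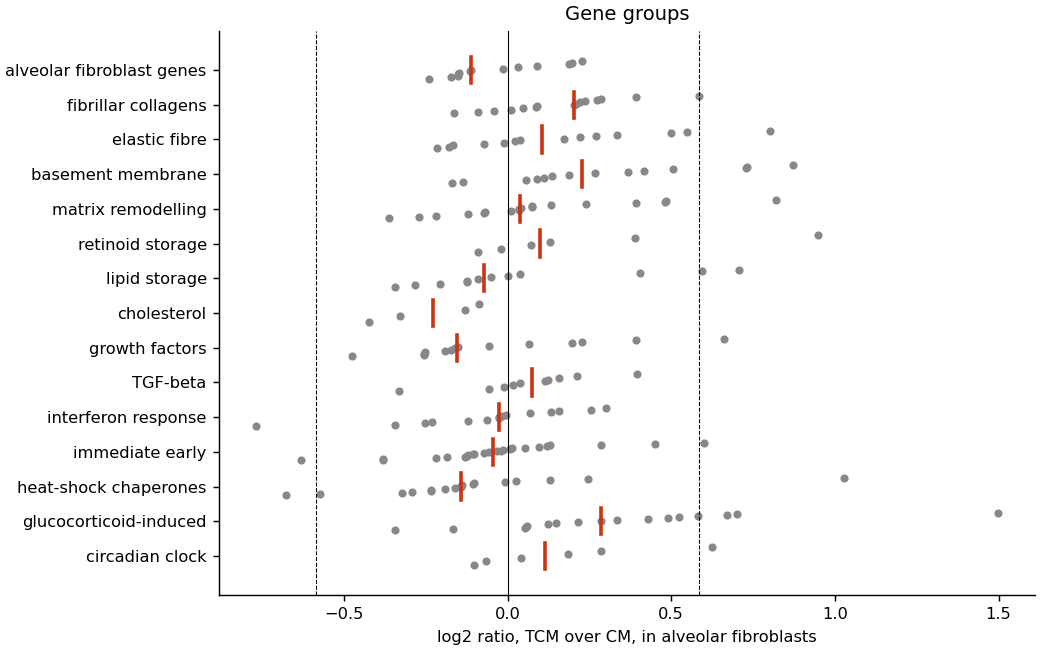
Log2 ratio of TCM over CM of each considered gene (grey points) in 15 gene groups, with the median of the group as a red bar and dashed lines at 1.5-fold. Glucocorticoid-induced genes (median 0.29), basement membrane (0.23) and fibrillar collagens (0.20) lie to the right of 0, and cholesterol (-0.23), growth factors (-0.15) and heat-shock chaperones (-0.14) to the left.

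Adventitial fibroblasts of the same 2 libraries are set beside the alveolar ones, and the values of both share those libraries. The adventitial class held 15 contractile cells in CM (6.28%) and 14 in TCM (7.73%), and the summed level of the smooth muscle list there was 156 in CM and 439 in TCM, against 809 and 837 in alveolar fibroblasts. The alveolar type II list summed to 114 and 510 in the adventitial and to 185 and 220 in the alveolar cells. The part of these in the differences below was not tested. Hspb8 stood at 10.2 and 7.10 in adventitial fibroblasts, so that the log2 ratios differed by 1.55 (counting interval 1.02 to 2.09). The difference was 0.98 for Serpina3n (0.54 to 1.42), 0.87 for Rgcc (0.37 to 1.37), 0.73 for Col6a3 (0.38 to 1.07), 0.53 for Col4a1 (0.24 to 0.82) and 0.40 for Eln (0.25 to 0.55). For Lrat it was 0.06 (-0.36 to 0.48), for Hspg2 0.08 (-0.43 to 0.58) and for Zbtb16 -0.34 (-0.82 to 0.13), intervals that include 0. These intervals leave out the spread between animals.

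Transcripts of other cell types were also present and moved. S100a8 and S100a9, the calprotectin genes of neutrophils, had 60 and 107 UMIs in CM and 672 and 905 in TCM (log2 ratios 3.77 and 3.37). In TCM 10 cells held 64.0% and 63.4% of these, and the same ratios over all other cells were 3.09 and 2.96. The estimate for free RNA in TCM was 49.4% and 60.7%. That is more than these 10 cells left to the rest of the alveolar fibroblasts, so the estimate is uncertain for these genes. The contractile cells held 31.5% and 38% of the TCM UMIs, and the ratios without them were 3.25 and 2.74. The whole neutrophil list of 10 genes summed to 66.8 UMIs per 100000 in CM and 144 in TCM in alveolar fibroblasts, against 263 and 2023 in all other cells, with 0 of its genes at 0 UMIs. Hbb-bs, a haemoglobin gene of red blood cells, had 353 UMIs in CM and 5 in TCM (-5.86), with 97.5% of those in CM in 10 cells. The alveolar type I list summed to 125 and 148, and its genes Hopx (0.70) and Ager (0.79) had 75% and 91.2% of their TCM UMIs in 10 cells. The surfactant gene Sftpc stood at 138 and 169, and its thinned share was 41.9% of CM and 60.4% of TCM cells, below the 49.3% and 75% of lymphocytes. Endothelial (66.5 and 68.4), macrophage (38.3 and 42.3) and lymphocyte (10.0 and 3.14) lists were low in both libraries, and the mesothelial list summed to 3.57 and 5.75, with Wt1 and Upk3b at 0 in both.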

How the data were processed

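Lungs of BALB/c mice were profiled with droplet-based single-cell RNA sequencing (Chromium, 5′ chemistry), with 1 library from the CM and 1 from the TCM group. The authors deposited unfiltered matrices of UMI counts per gene and barcode, which are raw counts and not normalized. The submitters' processing notes name Cell Ranger (version 4 in the file headers), Seurat, and the builds mm10 and GRCm38.p6, and how intronic or multi-mapped reads were counted is not given in the sources used here. Samples were grouped by the treatment label. No count came from columns of unknown samples.

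Counts were summed over the alveolar fibroblasts of each library and divided by their total, so that a level is UMIs per 100000. Log2 ratios carry 95% conditional binomial intervals, levels Poisson and shares Clopper-Pearson intervals, and differences between 2 log2 ratios normal intervals. UMIs come from 1 library per group, so all intervals cover counting error only, and 0 UMIs allow up to 3. With 1 library per group no p-value was computed, and "past the fold" means 1.5-fold. Genes with a mean level of at least 5 were considered. The part of free RNA in each class was estimated with 7 genes of other cell types from droplets of 1 to 50 UMIs. For shares of cells with a UMI, cells were thinned to 1000 UMIs, which left 532 CM and 424 TCM alveolar fibroblasts and 924 and 556 lymphocyte droplets. No doublet caller was run, so doublets may remain among the cells. The rule drops cells with a UMI of Ptprc, Cdh5 or Epcam, but not doublets in which none of these was captured. An alternative left out the deepest 6% of cells.

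Genes were named by a rule: the 13 genes of the selection, the alveolar fibroblast list, the 12 largest rises and 12 largest falls with an interval off 0, at least 10 cells and under 50% of UMIs in the 10 highest cells, and in each list the 3 most abundant members and both extremes. Col4a5, Lgr6, Hspa1b, Col1a1, the laminin and nidogen genes, Sgk1, Tsc22d3, Fkbp5, Dhrs3, Plin2 and the lipid synthesis genes were named in addition, after their values were seen. The selection rule, the gene lists and the comparisons were chosen with earlier results of these data known. Gene coordinates are from GENCODE vM21 and sequences from RefSeq promoter windows (250 bases before to 50 after the start, GRCm38.p6), which held 108 of 157 named genes. Python 3.11.15, NumPy 2.4.6, SciPy 1.17.1, pandas 2.3.3 and matplotlib 3.10.9 were used, and the steps were tested on simulated data. Alternatives changed the filters on cells and genes, the scaling, the weighting of cells and the treatment of free RNA.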

Additional observations from a re-analysis of the deposited data

Results flagged for a closer look

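In 3 genes the levels in TCM and CM differed by at least 1.5-fold in both alveolar and adventitial fibroblasts, in opposite directions and with both intervals off 0. Genes with opposite signs but a smaller ratio in either class, such as Hspb8, are not counted here. With 1 library per group these differences were not tested. The difference of the log2 ratios (alveolar minus adventitial) was -3.67 for Actc1, a cardiac actin gene. It stood at 48.0 and 27.5 UMIs per 100000 in alveolar and 3.21 and 23.4 in adventitial fibroblasts, with 73.1% of its alveolar UMIs in CM in 10 cells. Actc1 was 1 of the 5 genes that defined the contractile cells, of which the alveolar class held 45 and 35 and the adventitial class 15 and 14. In the alveolar class the contractile cells held 99.3% and 99.4% of the summed UMIs of these 5 genes. Their part in this difference was not tested. The difference was 1.49 for Klf4, at 9.27 and 14.1 in alveolar and 39.4 and 21.3 in adventitial fibroblasts. It was 3.51 for the chemokine gene Cxcl2, at 1.94 and 8.21 in alveolar and 5.67 and 2.11 in adventitial fibroblasts, with 84.1% of its alveolar UMIs in TCM in 10 cells.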

How the results depend on the processing

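No paired analysis was possible because each group had 1 library, and for the same reason no replicate could be left out. The share of alveolar fibroblasts was lower in TCM under every alternative for which it was computed, with a ratio between 0.697 and 0.763. This share was not computed with at least 3000 UMIs per cell or without the contractile cells. The alternatives with at least 3000 UMIs per cell, without the contractile cells and without the 10 highest cells of each gene were chosen after seeing the data. Of 369 summary values under the alternatives 337 stayed within set limits, and 32 did not. The limits were the counting interval for the ratio of shares and 1.5 times for numbers of genes. For a list median they were the medians of its members' lower and upper interval ends, which are not the counting error of a median. Genes past the fold numbered 165 higher and 85 lower at a minimum level of 2, 24 and 5 at a minimum of 10, 9 and 1 at 2-fold, and 42 and 43 without the 10 highest cells. Without the deepest 6% of cells 39 were higher and 16 lower, and 43 of those 55 were among the 70.

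Medians of lists (log2) moved mainly for other cell types. Some alternatives changed which genes of a list reached the minimum level. For alveolar type II genes the median was -0.057 at no more than 5% mitochondrial UMIs, 0.33 at 1000 and 0.71 at 3000 UMIs or more. It was 0.40 with at least 3 alveolar UMIs, -0.094 with 1 excluded UMI allowed (over 6 genes) and -0.32 with each cell weighted alike. With free RNA subtracted it was -0.60, but over 2 genes in place of 4. For neutrophil genes, in the order of 1000 UMIs, 3000 UMIs, no deepest cells, cells alike, free RNA subtracted, no contractile cells and no minimum level, it was 4.18, 5.83, 2.76, 2.55, 4.88, 2.74 and 3.06. For alveolar type I genes it was -0.55 with 1 excluded UMI allowed and -0.24 without the 10 highest cells, and for endothelial genes 0.32 at 3000 UMIs. For smooth muscle genes it was 0.25 with 1 excluded UMI allowed and -0.24 without the deepest cells. Without the contractile cells it was -0.072 over the 2 genes still at the minimum level, and -0.20 over the 9 genes of the main setting. For adventitial genes it was -0.067 without the 10 highest cells. With each cell weighted alike it was 0.61 for niche matrix and 0.13 for metallothionein genes, and with no minimum level 0.14 for metallothionein and -0.019 for retinoid genes. The causes were not tested.

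Among named genes past the fold, direction was reversed for 3. Some below the fold changed sign too, such as Sftpc from 0.29 to -0.40 with 1 excluded UMI allowed. With 1 excluded UMI allowed, without the deepest 6% of cells and without the 10 highest cells Ager was at -0.49, -0.073 and -0.41 and Hopx at -0.69, -0.085 and -0.074, and Myh11 was at -0.20 without the contractile cells. Depth limits genes below about 5 UMIs per 100000, for which intervals are wide, and the spread between mice is unknown.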
